A study of Mus musculus with 12 samples.

Results

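The signal of N6-methyladenosine (m6A) enrichment libraries from wild-type mouse embryonic stem cells was mapped over 74299 genomic intervals and 4929385 annotated repeat loci. The cells were E14TG2a, an established mouse embryonic stem cell line, unmutated at Alkbh5 and grown with LIF and the kinase inhibitors PD0325901 and CHIR99021. The 2 libraries came from 2 of the 12 samples of the series, which also holds input RNA and cells with altered Alkbh5 that are not described here. They were chosen by the wild-type label of their columns, and every interval and every repeat locus of the deposited tables was kept after spike-in entries were dropped. RNA attached to chromatin was depleted of ribosomal RNA, mixed with spike-in RNA, fragmented and enriched for m6A. Nothing in the labels says whether the 2 libraries came from separate cultures, so their spread may be technical.

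m6A is placed on nuclear RNA by the METTL3 and METTL14 complex, is bound in the nucleus by YTHDC1, and can be removed by ALKBH5 and FTO. RNA held on chromatin includes unfinished transcripts with their introns, long noncoding RNAs and transcripts of transposable elements. In mouse embryonic stem cells, LINE-1 (L1) and intracisternal A particle RNAs, the latter of the ERVK group of endogenous retroviruses, are known carriers of m6A with roles in chromatin state.

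The columns were read as immunoprecipitated libraries because the submitters call the tables m6A matrices, while the columns themselves carry no such word. An unmodified spike-in RNA had 4580 reads in library 1 and 1729 in library 2, against 1172 and 1106 reads of the m6A-modified one. The unmodified RNA thus outnumbered the modified one in both libraries, and the amounts added are not known here. No column was read as input, so a high signal can come from much RNA, from much m6A on it, or from both. Each deposited value could be turned back into whole reads, with 1 read worth 0.116 units in library 1 and 0.123 in library 2 over intervals. Shares within a library do not depend on that factor. The tables give positions on the GRCm39 assembly but no gene names, so intervals are given by position only, and the stem cell label could not be checked against marker genes.

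A small number of intervals held most of the signal. The highest interval alone held 1.74% of the interval signal in library 1 and 2.03% in library 2. The top 10 held 4.95% and 5.30%, and the top 100 held 12.8% and 12.9%. These shares differed by less than 0.4 percentage points between the libraries. The top 1000 intervals held 37.3% and 36.9% of the signal, and the top 1%, or 743 intervals, held 32.6% and 32.3%. It took 1965 intervals in library 1 and 2028 in library 2 to reach 50% of the signal, 2.69% ± 0.060 (SD, n = 2) of all intervals. At the other end, the lower 50% of intervals held 0.577% and 0.645% of the signal. Both libraries therefore gave nearly the same concentration curve.

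**Figure D1:**
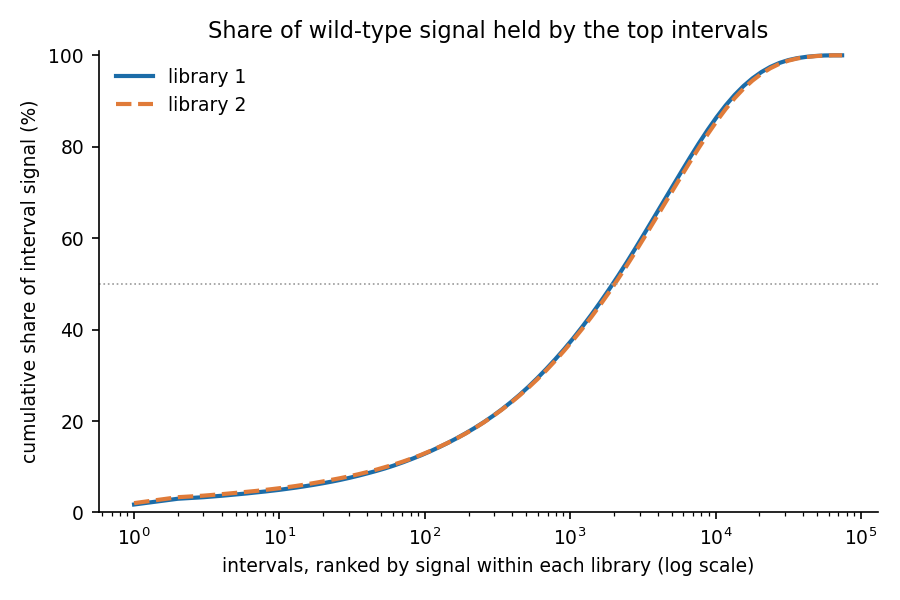
Cumulative share of interval signal in percent (vertical axis) against the number of intervals ranked by signal within each wild-type library (horizontal axis, log scale). The solid and dashed lines stand for libraries 1 and 2, which reach 50% (dotted line) at 1965 and 2028 intervals.

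Most intervals had few reads. The intervals held 13234793 reads in library 1 and 13386543 in library 2, and the median interval had 8 and 9 reads. No read was counted in 13997 intervals of library 1 and 12979 of library 2, and 7348 had none in either library. How the interval set was called, and whether on these cells alone, is not given in the sources used here. A mean of at least 10 reads was reached by 36153 intervals, or 48.7%, which together held 99.3% of the reads. A mean of at least 1000 reads was reached by 3014 intervals, or 4.06%, which held 58.9% ± 0.564 (SD, n = 2) of the reads.

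Of the named intervals, the highest lay on chromosome 19 at 5851020 to 5852658, spanned 1638 bp and had 229659 and 272225 reads. The next lay on chromosome 17 at 40154057 to 40154260, spanned only 203 bp and had 166650 and 173782 reads. In both libraries these 2 intervals stood well above the interval next in order, at 110660487 to 110660934 on chromosome 12, with 44532 and 45077 reads. Chromosome 17 held another pair of high intervals, at 45881302 to 45881651 with 37689 and 43590 reads and at 45879874 to 45880081 with 31159 and 31921 reads. A neighbour of the highest interval, on chromosome 19 at 5848812 to 5849294, had 41751 and 38240 reads. The others among the 10 highest lay on chromosomes 8, 10, 1 and 2. On chromosome 8 the interval at 43748676 to 43749706 had 30317 and 27435 reads. On chromosome 10 the interval at 4304707 to 4306870 had 23251 and 27381 reads. The intervals at 86457014 to 86457731 on chromosome 1 and at 52001434 to 52002992 on chromosome 2 had 23966 and 25338 reads, and 25213 and 21019 reads. The order of these lower places is not settled, since some neighbours, such as those on chromosomes 1 and 2, changed places between the libraries. Of the 10 highest intervals by mean signal, 3 touched no repeat locus and 0 had a repeat family over 50% of their length.

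Ranking by signal per kb brought short intervals forward. The 203 bp interval on chromosome 17 was the densest, at 100567 ± 7096 (SD, n = 2) units of signal per kb. The highest interval by signal, on chromosome 19, followed at 18408 ± 2955 (SD, n = 2), and the 207 bp interval on chromosome 17 at 18270 ± 1060 (SD, n = 2), which do not differ beyond their spread. The 2 lists of 10 shared 6 intervals. The lists of 1000 shared 569, with a median length of 739 bp by signal and 337 bp by density. The densest 1000 held 30.9% and 30.6% of the signal on 1.101% of the interval length.

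The intervals ran from 200 to 13148 bp with a median of 373 bp, and together covered 39.6 Mb. The median interval density was 2.11 units per kb in library 1 and 2.47 in library 2, while the highest 1% started at 595 and 621. Signal rose weakly with length, with Spearman's rho of 0.24 in library 1 and 0.25 in library 2 across 74299 intervals. Intervals are not independent replicates. Over intervals averaging 10 reads or more, rho was 0.13 and 0.14. By mean reads of the 2 libraries, the median interval had 4 reads at 200 to under 250 bp. It had 8.5 reads at 500 to under 1000 bp and 52.5 at 2000 to under 5000 bp. Pooled density was 49.6 ± 2.19 (SD, n = 2) in the shortest class, 200 to under 250 bp, and 47.0 ± 2.24 (SD, n = 2) from 250 to under 500 bp. It was 41.9 ± 1.86 (SD, n = 2) from 500 to under 1000 bp, lower than in the shortest class in both libraries, and 46.2 ± 2.41 (SD, n = 2) from 1000 to under 2000 bp. It was lowest from 2000 to under 5000 bp, at 11.2 ± 1.04 (SD, n = 2). The 21 intervals of 5000 bp or more had 30.5 ± 4.16 (SD, n = 2). All intervals pooled had 38.9 units per kb in library 1 and 41.7 in library 2, and every length class was higher in library 2. Each SD here includes that common shift, so it is not the error of a comparison of classes within a library. Pooled density is weighted to intervals of high signal, and the median interval density ordered the classes otherwise. As a mean of the 2 libraries it was 2.36 units per kb in the shortest class. In the longer classes, in order of length, it was 2.77, 1.60, 2.51, 2.22 and 6.29.

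Long intervals fell into very unlike kinds. Of 2106 intervals of 2000 bp or more, 1514 (71.9%) were covered by L1, at 2.09 and 2.97 units per kb in libraries 1 and 2. Another 116 had no repeat family over 50% of their length, at 138 and 162 units per kb. In both libraries the intervals with no family were far denser as a group. The longest interval of all, on chromosome 15 at 75974189 to 75987337, touched no repeat and had 619 and 756 reads. The next longest, on chromosome 3 at 6362434 to 6372779, was covered by L1 over 10345 bp and had 2607 and 3203 reads. That L1 interval held 56.4% of the signal of all 21 intervals of 5000 bp or more.

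Repeat make-up separated the number of intervals from their signal. Each interval was given the repeat family that covered at least 50% of its length, if any. L1, the autonomous retrotransposon family that makes up the largest part of the annotated repeat length, was given to 38049 intervals, or 51.2%. These L1 intervals held 3.48% of the signal in library 1 and 3.96% in library 2. The 24643 intervals with no such family, 33.2% of all, held 88.9% and 88.8%. The intervals without a family had 121 and 129 units of signal per kb, and the L1 intervals 2.38 and 2.89. Their median reads were 137 and 2. Intervals that touched no repeat locus at all numbered 16877, or 22.7%, and held 60.3% and 58.8% of the signal.

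The signal within L1 intervals was itself uneven. Only 20.1% of them had a mean of at least 10 reads, and 1216 (3.20%) held 50% of the L1 signal. The top L1 interval, on chromosome 8 at 43613071 to 43613907, had 7251 and 7564 reads and was covered by L1 over 58.6% of its length. It stood in place 115 among all intervals.

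Families of endogenous retroviruses held more signal per kb than L1. ERVK, the group of intracisternal A particles, covered 2474 intervals with 1.13% and 1.16% of the signal and 23.2 ± 1.53 (SD, n = 2) units per kb. MaLR, nonautonomous elements related to ERVL, covered 1893 intervals with 0.960% and 0.940% of the signal and 16.98 ± 0.581 (SD, n = 2) units per kb. ERVL, the group of MERVL, covered 2577 intervals with 0.856% and 0.745% of the signal and 5.98 ± 0.292 (SD, n = 2) units per kb. ERV1, related to gammaretroviruses, covered 742 intervals with 0.250% ± 0.004 (SD, n = 2) of the signal. The top ERVK interval lay on chromosome 11 at 97958595 to 97958844, with 4004 and 3246 reads, and the top ERVL interval on chromosome 2 at 162915104 to 162915305, with 4359 and 4652.

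Short interspersed elements covered few intervals, less dense than those with no family. All intervals pooled had 38.9 units of signal per kb in library 1 and 41.7 in library 2. SINE/Alu, the entry under which mouse B1 elements are listed, covered 437 intervals at 56.7 ± 5.59 (SD, n = 2) units per kb. B4 covered 133 intervals at 61.3 ± 5.16 (SD, n = 2) and B2, a family derived from a transfer RNA gene, covered 256 at 34.8 and 40.9, below all intervals pooled in each library. The top B4 interval held 20.8% of the B4 signal. Small nuclear RNA copies covered only 13 intervals, at 1168 ± 73.4 (SD, n = 2) units per kb, of which the top interval held 22.8%.

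Repeats of the entry Unknown, to which the annotation gives no family, stood out for signal. They covered 632 intervals, or 0.851%, with 2.53% of the signal in library 1 and 2.11% in library 2. Their density was 75.8 ± 6.05 (SD, n = 2) units per kb and their median interval had 167.5 reads. The 3 highest lay on chromosome 4, at 145263122 to 145265351 with 16887 and 15039 reads, at 147474483 to 147476424 with 9977 and 8115, and at 146802017 to 146804901 with 7757 and 6767. All 3 were lower in reads in library 2.

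Along the ranking, intervals without a family gave way to L1. Among ranks 1 to 100, 98% had no family and 0 were L1. From rank 5001 to 10000, 87.3% had no family and 3.46% were L1. From rank 20001 to 40000 the shares were 33.6% and 41.9%, and below rank 40000 they were 5.93% and 82.1%. In all, 28164 L1 intervals, or 74.0% of them, stood below rank 40000, where intervals had a mean of 6.5 reads or fewer.

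**Figure D2:**
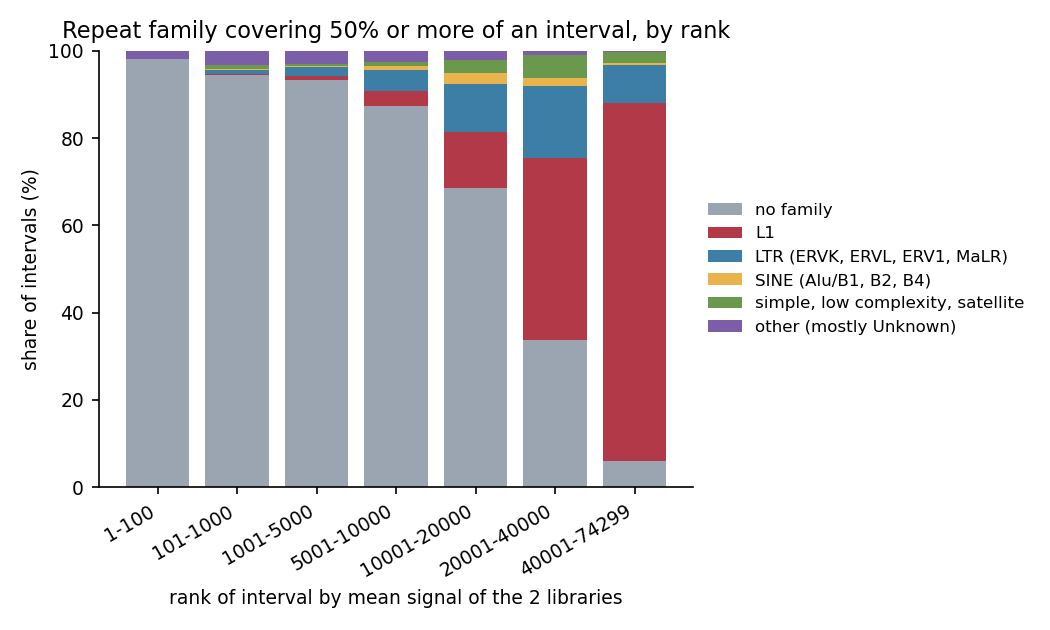
Share of intervals in percent (vertical axis) by the repeat family that covers at least 50% of the interval, for 7 bins of rank by mean signal of the 2 wild-type libraries (horizontal axis). Intervals with no such family make up 98% of ranks 1 to 100 and 5.93% of the last bin, where L1 makes up 82.1%.

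On 13 of the 21 chromosomes the share of signal lay within 1.3-fold of the share of interval length. It was higher on chromosomes 19, 17 and 11 and lower on chromosomes 3, 6, 14, X and Y. Chromosome 19 held 5.11% and 5.34% of the signal on 1.86% of the interval length, or 114 ± 8.97 (SD, n = 2) units per kb. Its highest interval held 36.1% of that, and without the top 100 intervals of all chromosomes its share was 3.38%. Chromosome 17 held 7.18% and 7.30% at 81.7 ± 4.96 (SD, n = 2) units per kb, with 17.7% of it in its densest interval. Chromosome 11 held 7.33% and 7.28% at 70.2 ± 3.10 (SD, n = 2).

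The sex chromosomes were at the low end of density. X held 2.64% and 2.63% of the signal on 7.45% of the interval length, or 14.3 ± 0.664 (SD, n = 2) units per kb. L1 covered 76.1% of the intervals on X. The 714 intervals on X with no family had a pooled density of 119 ± 3.79 (SD, n = 2) units per kb, within the range of the autosomes. That range ran from 99.3 on chromosome 7 to 236 on chromosome 19. By median reads of such intervals X was below the autosomes, at 78.25. The autosomes ran from 80 on chromosome 14 to 180 on chromosome 8. Y held 0.093% and 0.116% of the signal at 3.00 ± 0.620 (SD, n = 2) units per kb, with L1 over 89.0% of its intervals. Its 46 intervals with no family had 32.3 ± 4.58 (SD, n = 2) units per kb.

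The repeat table gives reads over all annotated repeats, inside intervals or not, and 46570 loci (0.945%) touched an interval. Repeat loci held 21908485 reads in library 1 and 21864369 in library 2, on 1120 Mb. Loci that touched an interval held 12.4% and 12.9% of these reads, so most repeat reads lay outside intervals. Of all loci, 77.6% and 77.3% had no read, and 58123 and 60715 loci, or 1.18% and 1.23%, held 50% of the reads. How reads that map to several places were counted is not given in the sources used here, which bears on young families with near-identical copies.

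Short interspersed elements as a class held 36.8% of repeat reads in library 1 and 36.3% in library 2, on 15.0% of the repeat length. Their density, with locus lengths as given, was 47.6 ± 0.501 (SD, n = 2) reads per kb, against 19.5 over all repeats. B2 held 12.4% and 12.3% of the reads, at 48.7 ± 0.265 (SD, n = 2) per kb. SINE/Alu held 11.9% in each library, at 44.9 ± 0.264 (SD, n = 2) per kb. B4 held 10.1% and 9.85%, at 47.3 ± 0.906 (SD, n = 2) per kb. B2 was slightly denser than B4 in each library, at 48.9 against 47.9 reads per kb in library 1 and 48.5 against 46.6 in library 2. Only 1.71% ± 0.032 (SD, n = 2) of the reads of this class lay in loci that touched an interval.

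L1 showed the reverse. It held 12.1% and 12.5% of repeat reads on 46.5% of the repeat length, at 5.17 ± 0.112 (SD, n = 2) reads per kb, place 51 of the 52 families with at least 20 loci and 100 reads. Loci that touched an interval held 25.2% ± 1.81 (SD, n = 2) of the L1 reads, at 10.5 reads per kb against 4.41 outside. With locus lengths as given, reads per kb was lower in each longer class of L1 loci up to 5000 bp. L1 loci under 100 bp had 15.6 ± 0.604 (SD, n = 2) reads per kb, those of 100 to 200 bp 11.1 ± 0.319 and those of 200 to 500 bp 8.56 ± 0.078. These shorter loci held 3.81%, 10.3% and 30.3% of the L1 reads. Loci of 500 to 1000 bp had 5.22 ± 0.013 (SD, n = 2) reads per kb, and those of 3000 to 5000 bp 1.98 ± 0.163. Those of 5000 bp or more, a length that includes full elements, had 3.52 and 4.28. These 15287 long loci, 1.83% of L1 loci, held 13.8% ± 1.60 (SD, n = 2) of the L1 reads. Of the long loci, 82.7% had reads and 51.5% touched an interval. With 150 bases added to every locus, a length chosen after seeing the data, L1 reads per kb did not fall across the classes under 500 bp. It was then 4.90 under 100 bp, 5.48 at 100 to 200 bp and 5.88 at 200 to 500 bp. Longer L1 loci still had less, with 4.29 at 500 to 1000 bp and 1.90 at 3000 to 5000 bp.

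Among endogenous retroviruses, MaLR held 11.6% of the reads in each library, at 22.3 ± 0.011 (SD, n = 2) reads per kb. ERVK held 7.21% and 7.08%, at 11.8 ± 0.168 (SD, n = 2), and its top locus, 6821 bp on chromosome 5 at 60106612 to 60113433, had 8242 and 7284 reads. ERVL held 2.85% and 2.71%, at 22.0 ± 0.834 (SD, n = 2), and ERV1 1.65% and 1.63%, at 12.03 ± 0.127 (SD, n = 2). MaLR and ERVL did not differ in density beyond their spread, and each was well above ERVK and ERV1. The 616 ERVL loci of 5000 bp or more differed from other long elements in coverage. Of them, 99.8% had reads and 99.2% touched an interval. They held 13.7% ± 1.01 (SD, n = 2) of the ERVL reads at 27.1 reads per kb in library 1 and 23.1 in library 2. Long ERVK loci numbered 1554 at 7.05 and 6.31 reads per kb, of which 15.4% touched an interval. Long ERV1 loci numbered 613 at 3.55 and 3.71, of which 19.4% touched one.

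**Figure D3:**
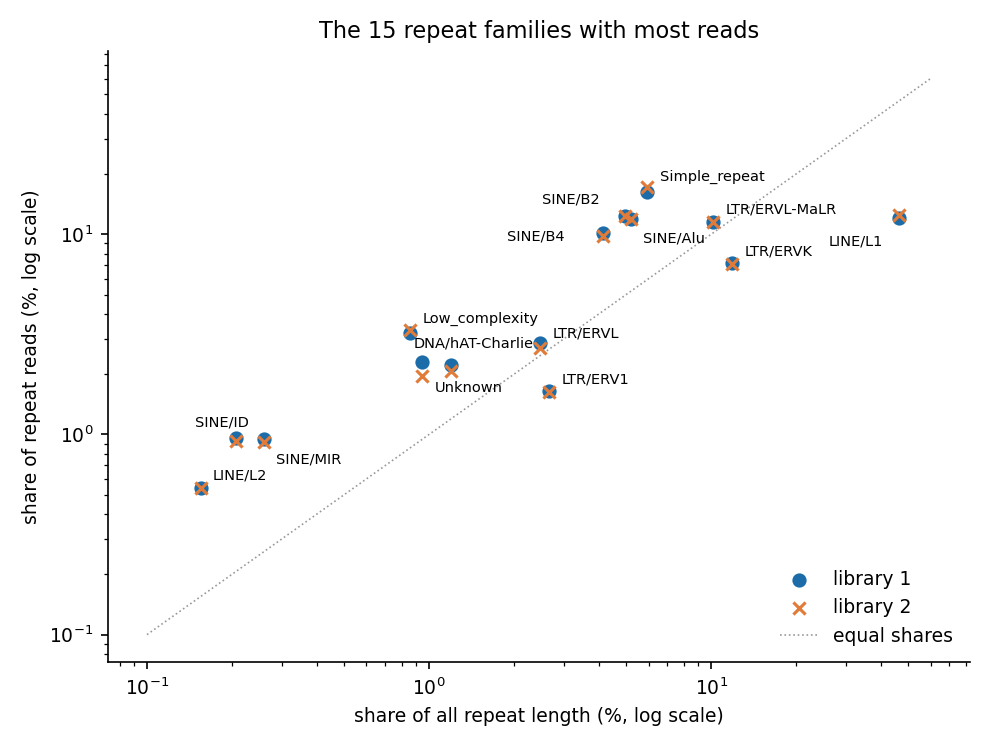
Share of repeat reads (vertical axis, percent, log scale) against share of all repeat length (horizontal axis, percent, log scale) for the 15 repeat families with most reads, with circles for library 1 and crosses for library 2. L1 lies below the dotted line of equal shares, with 46.5% of the length and 12.1% and 12.5% of the reads, and B2, SINE/Alu and B4 lie above it.

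Simple repeats, tracts of short repeated units, took the largest share of any single family, 16.3% of reads in library 1 and 17.1% in library 2. They had 55.2 ± 1.78 (SD, n = 2) reads per kb and a median locus length of 40 bp. Low-complexity tracts held 3.20% and 3.33% at 74.3 ± 1.96 (SD, n = 2) reads per kb. A read can extend past a locus this short, which raises reads per kb where any overlap is counted, and the counting rule is not stated. With 150 bases added to every locus, a length chosen after seeing the data, simple repeats had 13.8 reads per kb and went from place 14 to place 35. Low-complexity tracts then had 22.4 and went from place 7 to place 19, while L1 had 4.17 and kept place 51. Short interspersed elements, also short, had 22.5 as a class in place of 47.6. The 19.5 reads per kb over all repeats is for lengths as given, so it is not a reference for that 22.5. B2 then had 25.2 and went from place 17 to place 14, and B4 had 23.6 and went from place 19 to place 16. SINE/Alu had 19.8 and went from place 21 to place 23.

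The highest density was that of copies of small structural RNAs. srpRNA, copies of the RNA of the signal recognition particle, had 858 and 803 reads per kb. Its top 2 loci, both of 299 bp on chromosome 12, had 16318 and 15608 reads at 69407956 to 69408255 and 16153 and 14626 reads at 69206069 to 69206368. The higher held 45.5% of the family's reads, and without it the family had 456 reads per kb. snRNA, copies of spliceosomal and related small nuclear RNAs, had 372 and 341 reads per kb. Its top locus, on chromosome 9 at 78082584 to 78082915, had 18538 and 18400 reads, or 16.3%. SINE/tRNA, short elements related to transfer RNA genes, had 198 ± 0.204 (SD, n = 2) reads per kb over 152 loci. Its top locus, on chromosome 15, held 35.7% of the family's reads, and without it the family had 129 reads per kb. Transfer RNA copies had 108 ± 3.30 (SD, n = 2) reads per kb, and SINE/ID, short elements derived from the BC1 RNA gene, 88.9 ± 2.31 (SD, n = 2). With 150 bases added, srpRNA had 333, snRNA 137 and SINE/tRNA 94.4 reads per kb, and kept places 1 to 3. Transfer RNA copies went from place 4 to place 8, at 30.8, and SINE/ID from place 5 to place 12, at 28.0.

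**Figure D4:**
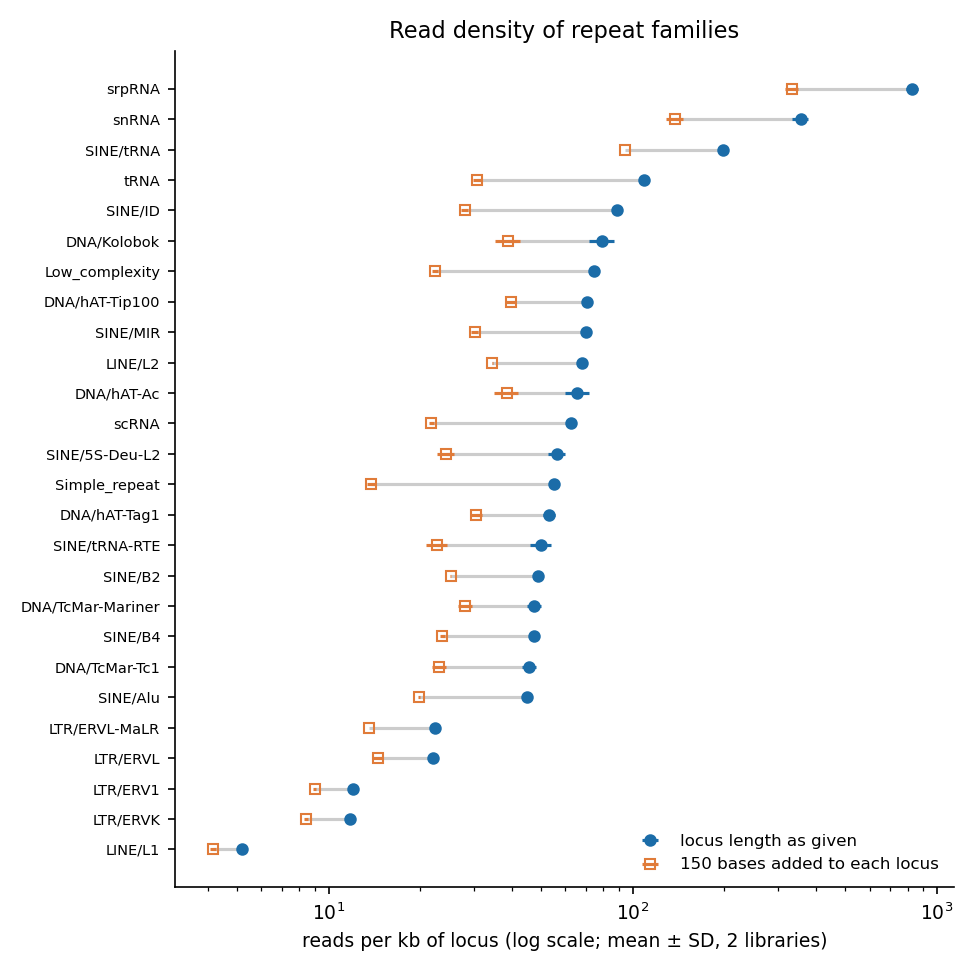
Reads per kb of locus (horizontal axis, log scale, mean ± SD of 2 libraries) for the 20 densest repeat families and the main SINE, LTR and L1 families (vertical axis). Filled circles use the length of each locus as given and open squares a length with 150 bases added. srpRNA leads under both, and simple repeats move from 55.2 to 13.8.

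Density of a family could rest on 1 locus. In 10 of 52 families the top locus held over 25% of the reads. hAT-Tip100, an old DNA transposon family, had 70.5 ± 2.63 (SD, n = 2) reads per kb. Its locus at 40153889 to 40154054 on chromosome 17 was the highest of all repeat loci, with 73313 and 69351 reads, and held 75.7% of the family. Without that locus the family had 17.2 reads per kb, below the 19.5 over all repeats. The locus ended 3 bp before the densest interval and touched no interval. Within 10 kb of that interval lay 29 repeat loci with 108362 and 119298 reads, among them 3 of the 10 highest loci of the table. None of the 29 touched an interval.

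Loci that the repeat annotation lists as ribosomal RNA had 389 and 359 reads in all, from RNA depleted of ribosomal RNA. A mitochondrial locus of 178 bp, at 2362 to 2540, held 382 and 355 of them, or 98.5%, and without it the entry had 0.0393 reads per kb in place of 2.67. Ribosomal RNA read at places outside this entry is not in these counts. With no gene annotation at hand, which RNA the chromosome 17 stretch around the densest interval carries was not determined. The entry for centromeric satellites held 5 loci with 0 reads in both libraries, which allows a share of up to 1.37e-05% of repeat reads, for counting error only.

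The 2 libraries agreed closely in the order of intervals. Over the 36153 intervals that averaged 10 reads or more, Pearson's r of log2(signal + 0.5) was 0.976 and Spearman's rho 0.969. These are correlations across intervals, which are not independent replicates and share library depth. Of these intervals, 95.9% lay within 2-fold between the libraries once the log2 ratio of signal + 0.5 was centred on its median over them. The lists of 10, 100 and 1000 highest intervals of each library shared 8, 90 and 883 members. Repeat loci had lower values, with r of 0.870 over 391037 loci with a mean of at least 10 reads and 89.2% within 2-fold. These values used log2(reads + 0.5) with no centring. For intervals the 0.5 was added to signal, where 1 read was worth 0.116 and 0.123 units. It thus stood for more reads there and damped the interval ratios more. The 2 sets were not matched for read level. Intervals at 10 to 20 reads had only 77.4% within 2-fold, and those at 20 to 50 reads 89.3%. Of 52 families, 41 had shares within 1.1-fold. Each family share is a sum over its loci, so it is not comparable with the values for single intervals or loci.

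The spread between the libraries was larger than counting error at every level. At 10 to 20 reads, the SD of the log2 ratio of shares was 0.87, against 0.57 from counting reads alone. At 200 to 500 reads it was 0.31 against 0.12. At 5000 reads or more it was 0.22 against 0.02, or 9.19 times counting error. The spread was smaller at higher read levels, and its ratio to counting error larger.

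**Figure D5:**
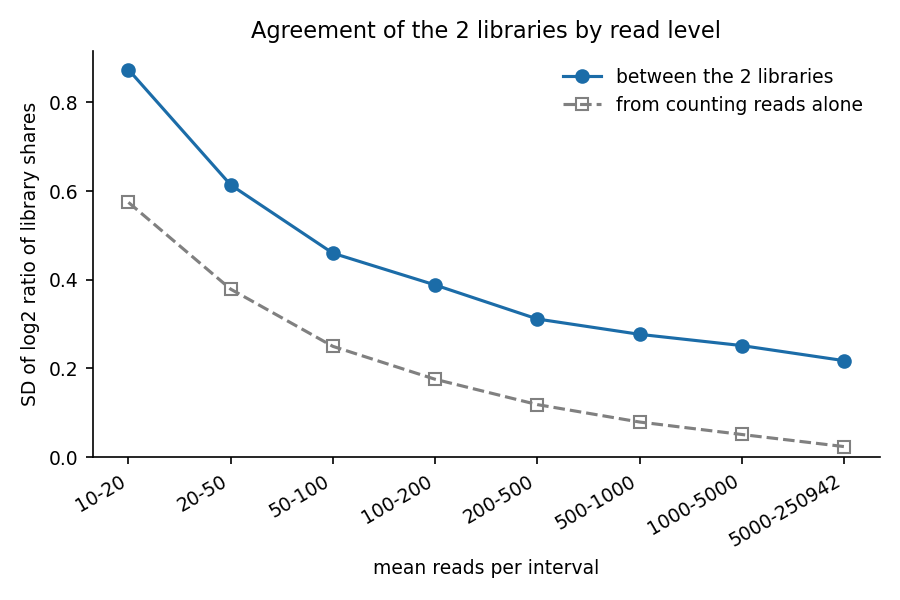
SD of the log2 ratio of library shares (vertical axis) by mean reads per interval (horizontal axis, 8 classes). Circles give the SD between the 2 wild-type libraries and squares the SD from counting reads alone. It falls from 0.87 at 10 to 20 reads to 0.22 at 5000 or more, where counting alone gives 0.02.

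Several repeat families differed in share between the libraries. Of all 36153 intervals averaging 10 reads or more, 54.2% had a higher share in library 2. The L1 share was higher in library 2 by 0.18 on the log2 scale, and 64.9% of L1 intervals averaging 10 reads or more had a higher share there. Among L1 intervals of 2000 bp or more the difference was 0.41, with 80.6% higher. Satellites stood at 0.19, with 68.1% higher in library 2, and simple repeats at 0.17, with 72.2%. ERVL went the other way, at −0.20, with 30.7% higher in library 2, and so did Unknown, at −0.26, with 27.2%. Intervals with no family stood at −0.00, with 51.7% higher, and ERVK at 0.04, with 54.3%. In the same libraries the unmodified spike-in took 4580 and 1729 reads, and whether that difference has a part in these shifts was not tested. With 2 libraries of 1 group no test of these differences is available, and each L1 or ERVL share above carries this shift as its error.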

How the data were processed

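Per the labels' protocols, chromatin-associated RNA of E14TG2a cells was depleted of ribosomal RNA, given EpiMark m6A spike-in RNA, fragmented, and enriched for m6A, and libraries were made with a stranded total RNA kit. Per the submitters' processing notes, fastp, HISAT2, SAMtools, Picard, MACS2, featureCounts, bedtools and GRCm39 were used. Versions, roles, the handling of reads with several positions and the pooling of replicates for interval calling are not given in the sources used here.

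The authors deposited a spike-in-scaled signal per interval and per repeat locus. The m6A spike-in has the same deposited signal, 136.4 units, in both libraries. Dividing each column by its smallest value above 0 gave whole reads for 100% of values (tolerance 1e-06). With 1 group there is no contrast, so no count test was run on the recovered reads. The other 8 columns of the 2 tables, from cells with altered Alkbh5, were not used, and 94 spike-in entries were dropped.

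Interval length was taken as end minus start. Whether starts count from 0 or 1 is not stated. bedtools 2.31.1 intersected intervals with repeat loci, and the family with the largest joined cover was assigned if it reached 50%. Shares, densities and ranks were computed per library in Python 3.11.15 with pandas 2.3.3 and numpy 2.4.6 and tested on simulated data. Values are given per library or as mean ± SD. Interval clusters joined neighbours within 10 kb. Counting SD is that of a log2 ratio of 2 Poisson counts, and such errors and limits (3 reads for a count of 0) cover counting error only.

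Intervals named were the 10 highest by signal, the 10 highest by signal per kb with at least 50 reads in each library, the 5 longest, and the 5 most unequal each way with a mean of at least 50 reads. Families named were the 10 highest by reads and by reads per kb with their top loci, and the 10 highest loci. The top interval of each main repeat family and the Unknown intervals were added after their values were seen. The text gives a selection. The members and lists were chosen with earlier results of these data known. Lists of genes and cell type markers were not used, as no gene annotation on GRCm39 was at hand.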

Additional observations from a re-analysis of the deposited data

How the results depend on the processing

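The share of the top 100 intervals, 12.9%, was 10.3% when ranked by signal per kb, 15.1% with intervals within 1 kb merged and 13.0% over intervals averaging 10 reads or more. The median density, 2.29 units per kb, was 25.01 over the latter. The signal of intervals with no family, 88.9%, was 83.8% with a cover of 25%, 92.2% with 75% and 59.6% where any overlap counted. The SINE share of repeat reads, 36.5%, was 41.1% over loci outside intervals and 36.0% over loci with a mean of at least 10 reads. L1 had 5.17 reads per kb, 4.41 outside intervals and 4.17 with 150 bases added. Chromosome 19 had 5.22% of the signal and 3.38% without the top 100 intervals. The number of intervals for 50% of the signal went from 1997 to 1576 when merged and 1963 with the read minimum, and r stayed between 0.971 and 0.980. Each library alone gave 12.8% to 12.9% for the top 100 and 1965 to 2028 intervals for 50%. Of 168 other values under these alternatives, 124 moved by more than 1 SD and 44 by less. Leaving out 1 of 2 libraries is not counted there, since it always moves a mean by under 1 SD. No paired analysis was possible because only 1 group was described.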

Other observations

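Intervals lay close together, and crowded clusters held a smaller share of the signal than of the intervals. Joined over gaps of up to 10 kb, they formed 31669 clusters, of which 15899 held 1 interval. The 4303 clusters of 5 or more intervals held 37.5% of the intervals and 24.4% and 24.9% of the signal. The cluster with most signal, on chromosome 19 at 5819933 to 5852658, had 8 intervals and 2.06% and 2.33% of the signal. The cluster with most intervals, on chromosome 6 at 114457560 to 114620712, had 158 intervals and only 299 and 417 reads in all. A cluster on chromosome 1 at 34216881 to 34240407 had 13 intervals with 77782 and 79838 reads. In 1 Mb windows, 263 of 2688 windows held 50% of the signal in library 1 and 260 in library 2.

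The top satellite interval lay on chromosome Y at 90822361 to 90824123 and had 3080 and 4458 reads. A few intervals differed widely between the libraries. The B4 interval on chromosome 9 at 22039843 to 22040063 had 253 reads in library 1 and 7 in library 2, and an interval with no repeat on chromosome 11 at 101830363 to 101830665 had 334 and 16. In the other direction, an interval on chromosome 11 at 94393798 to 94394003 had 8 and 107 reads, and a B2 interval on chromosome 5 at 31242645 to 31242856 had 28 and 165. Intervals averaging 50 reads or more lay outside 2-fold in 214 of 22230 cases, with the log2 ratio centred on its median as above.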
